A study of Homo sapiens with 6 samples.

Results

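The genes described here are 45 genes of DNA replication and S phase, out of 32985 genes in the deposited table, in 8505C anaplastic thyroid cancer (ATC) cells transfected with control siRNA (siCtrl) or NUF2 siRNA (siNUF2). They were chosen by name, for what their proteins do, but with earlier results of these data known. Every one of the 45 was found once in the table and passed the filter on low values (mean FPKM of 1 or more across libraries). FPKM is a count of fragments scaled for transcript length and sequencing depth. 8505C is an established human cell line derived from ATC and is labelled WT, with no engineered allele. Each group held 3 poly(A) RNA-seq libraries taken at 24 h, and both groups had been transfected. A single NUF2 siRNA and 1 cell line were used, and no label says whether the 3 libraries of a group came from separate cultures, so p-values measure the spread between these libraries.

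DNA replication begins in G1, when the origin recognition complex, CDC6 and CDT1 load the ring-shaped MCM2-7 helicase onto DNA. At the start of S phase the kinases CDC7-DBF4 and cyclin E-CDK2 help to recruit CDC45 and GINS, which turn the loaded ring into the active helicase, and polymerases, the PCNA clamp and its loader then copy both strands. Transcription factors of the E2F family are known to drive many of these genes at the G1/S transition. NUF2 itself is a subunit of the NDC80 complex, which attaches kinetochores to spindle microtubules in mitosis.

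NUF2, the targeted gene, was first checked in every library. It had 14.8, 14.5 and 12.2 FPKM in siCtrl and 1.53, 2.05 and 1.56 FPKM in siNUF2. All 3 siNUF2 libraries lay far below all 3 siCtrl libraries, at 12.4% of the siCtrl mean. This was a log2 fold change of -2.99 (quasi-likelihood test of edgeR, Benjamini-Hochberg adjusted over 11725 genes, adjusted p = 0.00051). The siRNA targets the 21 bases below, in coding exon 6 of 14 of NUF2 (chr1:163336814-163336834 of GRCh38, plus strand). They are shown because the 7 bases in capitals pair with the seed of the antisense strand and can also occur in the 3′ UTRs of other genes, as described further on for the replication genes.
NUF2 siRNA target: gccgtgaaacgtaTATGGAAt

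The libraries held 61257859 to 69755291 counts each, with 6.66% to 7.87% of them in the 10 most abundant genes. VIM, KRT8 and KRT18 were abundant, whereas the epithelial markers EPCAM and CDH1 and the thyroid genes TG, FOXE1 and SLC5A5 were each under 1 FPKM in every library, and of the 6 thyroid markers analysed only NKX2-1 passed 1 FPKM (14.6 to 21.5). The 9 markers of leukocytes, endothelium and fibroblasts summed to 7.59 to 10.6 FPKM in siCtrl and 6.27 to 10.9 FPKM in siNUF2, with CD68 the highest of them in every library. Libraries with the same replicate number in both groups deviated together from their group means (correlation across genes of 0.423, 0.313 and 0.431 for numbers 1, 2 and 3, against -0.276 to -0.138 for unlike numbers). Deviations from a group mean cancel out within the group, so the negative values follow from the positive ones and are no separate evidence. The labels do not say what a number shares. Each result is therefore given from a fit without and a fit with a block for replicate number, where the block changed the call.

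The log2 fold change was above 0 for 34 of the 45 genes, with a median of 0.18, beside a median of 0.01 over all 11725 genes tested. Without the block, that median moved when single libraries were left out. Without siNUF2 replicate 2 it was 0.04, with 27 of the 45 above 0, and without siCtrl replicate 3 it was 0.09, with 34 above 0. Leaving out 1 library also unbalanced the replicate numbers between the groups. With the block, leaving out both libraries of number 1, 2 or 3 gave medians of 0.19, 0.14 and 0.19. The counts above 0 were then 36, 35 and 35. The change passed an adjusted p of 0.05 for 1 gene without the block, RRM1, which was higher, and no gene passed in the lower direction (14 of the 45 had an unadjusted p under 0.05, beside 18.2% of all genes). Over all genes, 1.53% were called higher and 2.46% lower in that fit. DESeq2 called 4 of the 45, of which DBF4 was lower, beside 8.29% of all genes, a share near that of the 45. With the block, 12 of the 45 were called higher (MCM2, MCM3, MCM5, MCM7, GINS4, PRIM1, RRM1, RRM2, TK1, CCNE1, CDC7 and CHAF1B) and 2 lower (ORC2 and DBF4), beside 6.64% higher and 7.91% lower over all genes. As shares of the 45, these are 26.7% higher and 4.44% lower. The sizes were modest: among the 14 called genes the log2 fold change ran from -0.44 (DBF4) to 0.83 (CCNE1). In bulk RNA, more cells in S phase and more of a transcript per cell cannot be told apart. By flow cytometry, the paper reported an accumulation of NUF2-knockdown ATC cells in G2/M phase. How that relates to the levels of these genes was not tested.

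The groups did not overlap for 10 of the 45 genes. FPKM in all 3 siNUF2 libraries exceeded all 3 siCtrl libraries for MCM3, GINS4, RRM1, RRM2, CCNE1, CDC7 and CHAF1B (7 genes, beside 10.5% of all genes), and lay below for ORC2, POLD3 and DBF4 (3 genes, beside 13.4%). Compared within numbers, 27 of the 45 were higher in siNUF2 in all 3 same-number pairs and 5 were lower in all 3, beside 26.5% and 25.3% of all genes.

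**Figure D1:**
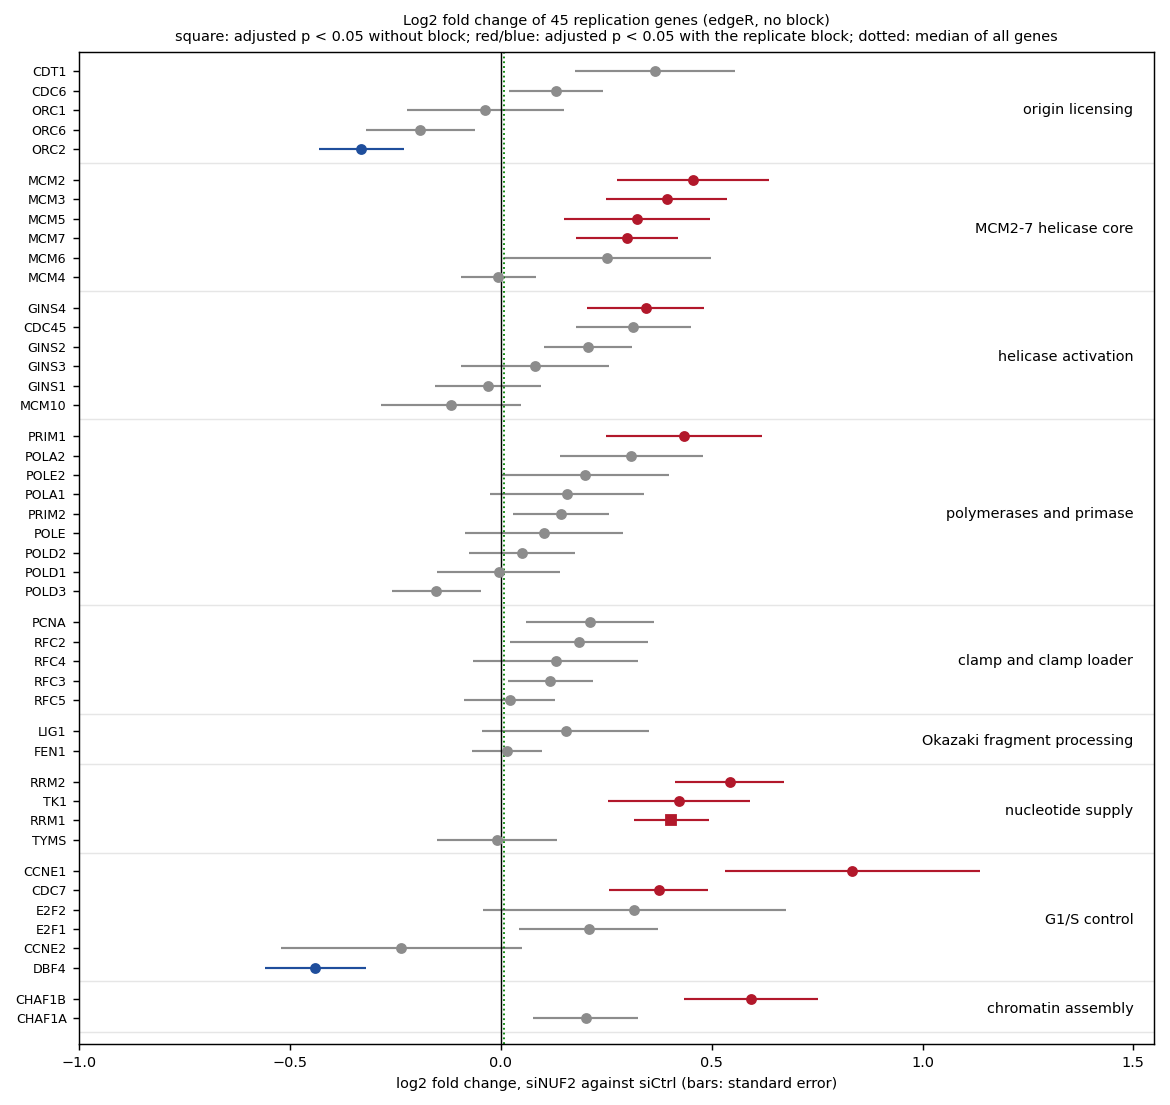
Log2 fold change (x axis, siNUF2 against siCtrl, edgeR without the block) of the 45 genes, grouped by role, with bars for 1 standard error. A square marks an adjusted p under 0.05 without the block, red (higher) and blue (lower) mark it with the block, and the dotted line is the median of all genes tested at 0.01. Most points lie right of that line, with CCNE1 farthest right at 0.83 and DBF4 farthest left at -0.44.

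The levels of the 45 genes spanned a wide range on the FPKM scale, which is per transcript length. PCNA, the sliding clamp that tethers polymerases, was the most abundant, with 110.2, 139.8 and 106 FPKM in siCtrl and 119, 159 and 127 in siNUF2. FEN1, the nuclease that trims Okazaki fragment flaps, had 87.5, 87.3 and 92.4 FPKM in siCtrl and 87.2, 87.9 and 90.97 in siNUF2. MCM7, a helicase subunit, came next with a mean of 60.7 FPKM over the 6 libraries, against 60.5 FPKM for MCM3, a gap within the spread of either gene. The least abundant were CCNE2, a cyclin E gene, E2F2, an activator E2F, and POLE, the catalytic subunit of the leading-strand polymerase, with means of 2.15, 2.58 and 3.25 FPKM. POLE had 2.84, 3.897 and 2.73 FPKM in siCtrl and 3.25, 4.06 and 2.702 in siNUF2, so that its groups overlapped.

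**Figure D2:**
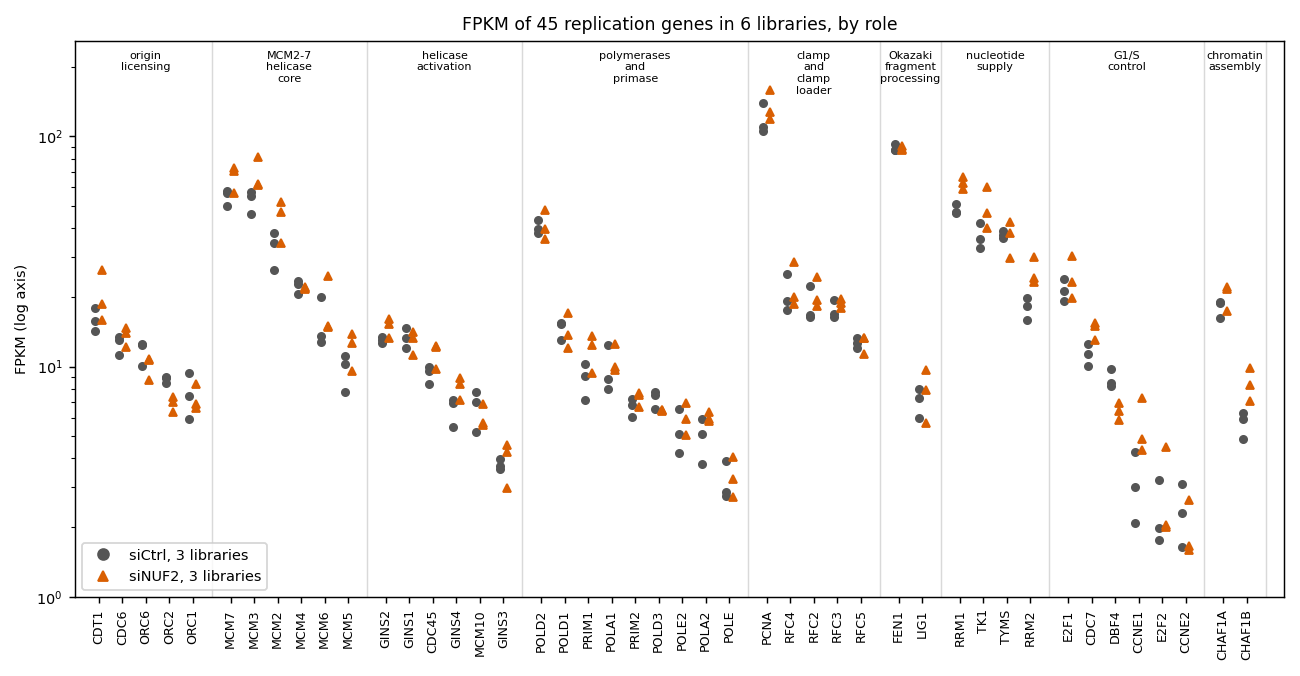
FPKM (y axis, log scale) of each of the 45 genes in the 6 libraries, by role, with circles for the 3 siCtrl and triangles for the 3 siNUF2 libraries. PCNA stands highest (mean of 127 FPKM) and CCNE2 lowest (2.15 FPKM), and for most genes the circles and triangles overlap.

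Among the 5 origin licensing genes, ORC2 fell with the block and the other 4 passed in neither fit. ORC2, a core subunit of the origin recognition complex, had 8.49, 9.02 and 8.95 FPKM in siCtrl and 6.33, 7.02 and 7.38 FPKM in siNUF2. The groups did not overlap, siNUF2 being lower throughout (8.82 ± 0.29 against 6.91 ± 0.53 FPKM, SD, n = 3 each). The log2 fold change of ORC2 was -0.33 ± 0.10 (SE), with an adjusted p of 0.131 without and 0.0281 with the block. ORC6, another subunit, had a log2 fold change of -0.19, and ORC1, the subunit that comes and goes with the cell cycle, -0.04. CDC6 and CDT1, which load MCM2-7, had 0.13 and 0.36. CDT1 was higher in siNUF2 in all 3 pairs, but the value in siNUF2 replicate 2 (26.3 FPKM) stood above the other 2 siNUF2 libraries (18.7 and 15.9 FPKM). A transcript named AC005037 on the opposite strand overlaps ORC2 in the table, and reads of the pair cannot be told apart if the counting ignored strand, which the sources used here do not give.

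The 6 subunits of the MCM2-7 ring, which are present in equal numbers in the helicase, differed in transcript level. Their mean FPKM ran from 10.9 (MCM5) to 60.7 (MCM7), a 5.59-fold range. MCM2, MCM3, MCM5 and MCM7 rose with the block, none of the 6 passed without it, and MCM4 and MCM6 passed in neither fit. MCM2 had 37.96, 34.3 and 26.2 FPKM in siCtrl and 51.6, 47.1 and 34.5 in siNUF2. The siNUF2 value was higher within each number, while siNUF2 replicate 3 lay below siCtrl replicate 1. On the log2 scale the difference for MCM2 was 0.46 ± 0.18 (SE), and the adjusted p was 0.238, or 0.00516 with the block. AC023593 overlaps MCM2 on the opposite strand. MCM3 had 55.00, 57.2 and 46.2 FPKM in siCtrl and 61.8, 81.6 and 61.5 in siNUF2. The 3 siNUF2 libraries were all higher, with the highest in replicate 2. For MCM3 this gave a log2 fold change of 0.39 ± 0.14 (SE), at adjusted p = 0.201 without the block and 0.0252 with it.

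MCM5 had 10.3, 11.1 and 7.78 FPKM in siCtrl and 12.6, 13.8 and 9.59 in siNUF2. Replicate 3 was the lowest library in both groups, and the groups overlapped. A log2 fold change of 0.32 ± 0.17 (SE) was fitted for MCM5, and its adjusted p was 0.388 without and 0.0219 with the block. MCM7 had 56.5, 58.1 and 50.04 FPKM in siCtrl and 70.6, 72.6 and 56.5 in siNUF2. Here too replicate 3 was lowest in both groups, and siNUF2 replicate 3 fell below siCtrl replicate 2. The log2 fold change of MCM7 was 0.30 ± 0.12 (SE), with an adjusted p of 0.243 without and 0.027 with the block. AP4M1 on the opposite strand and the microRNA genes MIR106B, MIR93 and MIR25 on the same strand overlap MCM7. The other subunits had log2 fold changes of 0.25 (MCM6) and -0.0057 (MCM4), whose FPKM stayed between 20.6 and 23.5 in all 6 libraries. The ratio of MCM2 to MCM4 FPKM, a pair chosen after its values were seen, was 1.61, 1.51 and 1.27 in siCtrl and 2.33, 2.17 and 1.58 in siNUF2. The siNUF2 library of replicate 3 lay within the siCtrl range, so the ratios overlapped.

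Of the 6 genes that activate the loaded helicase, GINS4 rose with the block. GINS4, a subunit of the GINS complex, had 6.91, 7.13 and 5.45 FPKM in siCtrl and 8.88, 8.37 and 7.14 in siNUF2. The lowest siNUF2 library was just above the highest siCtrl library (7.14 against 7.13 FPKM). On the log2 scale the difference for GINS4 was 0.34 ± 0.14 (SE), and the adjusted p was 0.244, or 0.0321 with the block. AC009630 overlaps GINS4 on the opposite strand. CDC45, the partner of GINS in the active helicase, had a log2 fold change of 0.31 and was higher in all 3 pairs, without passing in either fit. GINS2, GINS3 and GINS1 had 0.21, 0.08 and -0.03, and MCM10, which is needed for origin firing, had -0.12. GINS1 to GINS4 form a complex with equal numbers of each, and only GINS4 of them was called.

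Of the 9 polymerase and primase genes, PRIM1 rose with the block and none passed without it. PRIM1, the catalytic subunit of primase, which lays down RNA primers, had 9.08, 10.3 and 7.19 FPKM in siCtrl and 12.4, 13.6 and 9.38 in siNUF2. Each siNUF2 library exceeded the siCtrl library of its own number, and the groups overlapped. For PRIM1 this gave a log2 fold change of 0.43 ± 0.18 (SE), at adjusted p = 0.265 without the block and 0.0236 with it. NACA and AC117378 overlap PRIM1 on the same strand in the table, so how the authors' counting shared reads among them bears on this gene. HSD17B6 overlaps PRIM1 on the opposite strand. The other subunits of the primase complex had log2 fold changes of 0.14 (PRIM2), 0.16 (POLA1) and 0.31 (POLA2). The lagging-strand polymerase genes POLD1, POLD2 and POLD3 had -0.005, 0.05 and -0.15, and the leading-strand genes POLE and POLE2 had 0.10 and 0.20. POLD3 was below siCtrl in all 3 siNUF2 libraries (6.49, 6.45 and 6.400 against 7.48, 7.78 and 6.55 FPKM), by less than the test could call (adjusted p = 0.52 without and 0.306 with the block).

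The clamp, clamp loader and Okazaki fragment genes did not pass in either fit. Their log2 fold changes were 0.21 for PCNA, 0.18, 0.12, 0.13 and 0.02 for the clamp loader subunits RFC2 to RFC5, 0.15 for the ligase LIG1 and 0.014 for FEN1. FEN1 was nearly level across all 6 libraries, at 89.1 ± 2.88 FPKM in siCtrl and 88.7 ± 2.02 FPKM in siNUF2 (SD, n = 3 each). FADS2 overlaps FEN1 on the same strand in the table.

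Nucleotide supply was the group with the largest share of calls. RRM1 passed in both fits and RRM2 and TK1 rose with the block, while TYMS did not pass. RRM1, the large subunit of ribonucleotide reductase, which makes deoxyribonucleotides, had 46.9, 50.7 and 46.3 FPKM in siCtrl and 66.4, 62.8 and 58.8 in siNUF2. Every siNUF2 library was above every siCtrl library (47.97 ± 2.41 against 62.6 ± 3.80 FPKM, SD, n = 3 each), a 1.31-fold difference of means. A log2 fold change of 0.40 ± 0.09 (SE) was fitted for RRM1, and its adjusted p was 0.0488 without and 0.00919 with the block. RRM2, the small subunit of that enzyme, had 18.3, 19.8 and 15.97 FPKM in siCtrl and 24.3, 29.9 and 23.4 in siNUF2. The groups did not overlap, and the means differed 1.44-fold. The log2 fold change of RRM2 was 0.54 ± 0.13 (SE), with an adjusted p of 0.0647 without and 0.00386 with the block. TK1, the thymidine salvage kinase, had 32.8, 42.2 and 35.9 FPKM in siCtrl and 46.4, 60.3 and 39.8 in siNUF2. The rise was smallest in replicate 3, where siNUF2 lay below siCtrl replicate 2. On the log2 scale the difference for TK1 was 0.42 ± 0.17 (SE), and the adjusted p was 0.241, or 0.0279 with the block. TYMS, which makes thymidylate from deoxyuridylate, had a log2 fold change of -0.0086, with 29.5, 42.6 and 37.9 FPKM in siNUF2, on both sides of its siCtrl libraries (36.1, 37.3 and 38.9 FPKM). RRM1-AS1, AC007240 and, for TYMS, ENOSF1 and TYMSOS lie on the opposite strands of RRM1, RRM2 and TYMS. Without the block the RRM1 call was lost when any library was left out, with the log2 fold change still at 0.35 or more, and no other replication gene passed in those fits. With the block RRM1 was called also without both libraries of any number.

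The 6 genes of G1/S control held the log2 fold changes of the 45 that lay farthest from 0 in both directions. CCNE1, a cyclin E gene whose product activates CDK2, had 3.01, 2.09 and 4.25 FPKM in siCtrl and 4.85, 4.32 and 7.28 in siNUF2. The 3 siNUF2 libraries were all higher, though the lowest of them (4.32 FPKM) was close to the highest siCtrl library (4.25 FPKM), and replicate 3 was highest in both groups. For CCNE1 this gave a log2 fold change of 0.83 ± 0.30 (SE), at adjusted p = 0.197 without the block and 0.0106 with it. CCNE2, the other cyclin E gene, had 3.09, 2.299 and 1.64 FPKM in siCtrl and 2.63, 1.67 and 1.595 in siNUF2. Its groups overlapped, with a log2 fold change of -0.24 that passed in neither fit (adjusted p = 0.737 without and 0.36 with the block). E2F1, an activator E2F, had a log2 fold change of 0.21. E2F2 had 1.99, 3.21 and 1.76 FPKM in siCtrl and 2.02, 4.45 and 2.05 in siNUF2. Replicate 2 stood above the other numbers in both groups, and the log2 fold change of 0.32 did not pass.

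CDC7 and DBF4, the catalytic and the activating subunit of the kinase that phosphorylates MCM2-7, moved in opposite directions with the block. CDC7 had 12.5, 11.4 and 10.1 FPKM in siCtrl and 14.9, 15.4 and 13.04 in siNUF2. All siNUF2 libraries were higher. A log2 fold change of 0.37 ± 0.12 (SE) was fitted for CDC7, and its adjusted p was 0.143 without and 0.0214 with the block. DBF4 had 9.78, 8.44 and 8.21 FPKM in siCtrl and 6.94, 5.85 and 6.42 in siNUF2. All siNUF2 libraries were lower, at 72.7% of the siCtrl mean. The log2 fold change of DBF4 was -0.44 ± 0.12 (SE), with an adjusted p of 0.0957 without and 0.0197 with the block. The ratio of CDC7 to DBF4 FPKM, chosen after both values were seen, was 1.28, 1.35 and 1.23 in siCtrl and 2.15, 2.64 and 2.03 in siNUF2, without overlap (1.28 ± 0.06 against 2.27 ± 0.32, SD, n = 3 each). A two-sided exact permutation test of the CDC7 to DBF4 ratio gave p = 0.1, the smallest value possible with 3 libraries per group. Since the pair was picked for its values, no conclusion is drawn from that p-value. By exact permutation test, p was 0.2 for MCM2/MCM4, 0.3 for CCNE1/CCNE2 and 0.4 for RRM2/RRM1. These pairs too were chosen after their values were seen, and the test did not use the replicate numbers. No conclusion is drawn from their p-values either. SLC25A40 overlaps DBF4 on the opposite strand.

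Chromatin assembly factor 1 places histones H3 and H4 on new DNA behind the fork. CHAF1B, one of its subunits, had 5.89, 6.28 and 4.84 FPKM in siCtrl and 8.32, 9.896 and 7.098 in siNUF2. The groups did not overlap and the means differed 1.49-fold. On the log2 scale the difference for CHAF1B was 0.59 ± 0.16 (SE), and the adjusted p was 0.0915, or 0.00642 with the block. MORC3 overlaps CHAF1B on the same strand. CHAF1A, its partner subunit, was higher in all 3 pairs with a log2 fold change of 0.20, which passed in neither fit.

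**Figure D3:**
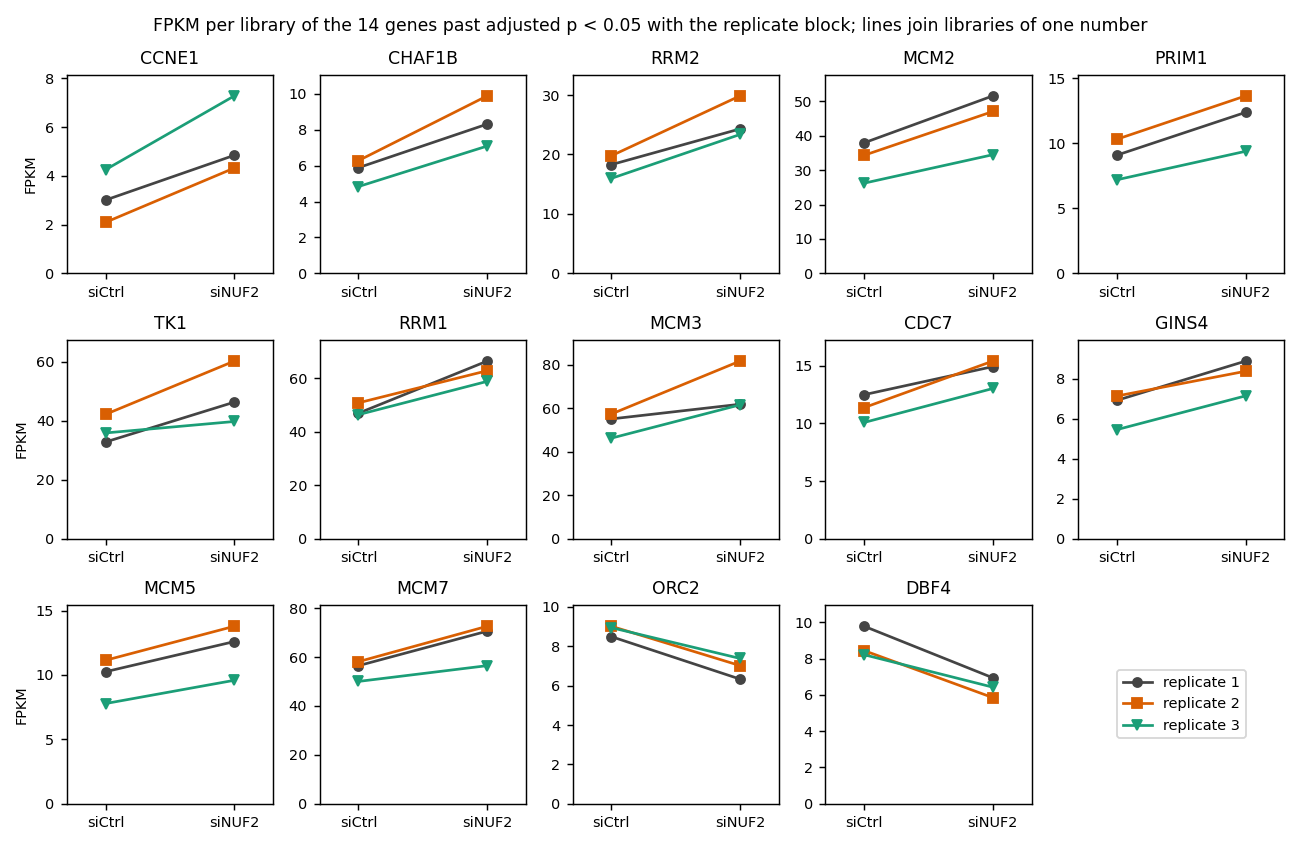
FPKM (y axis, from 0) in siCtrl and siNUF2 for the 14 genes called with the replicate block, with lines joining the libraries of the same replicate number. In 12 panels all 3 lines go up and in those of ORC2 and DBF4 all 3 go down, while for MCM2, MCM5, MCM7, PRIM1 and TK1 the siNUF2 library of replicate 3 lies within the range of the siCtrl libraries.

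The replication genes varied with replicate number as well as with NUF2 siRNA. The term for replicate number passed an adjusted p of 0.05 for 9 of the 45 (MCM2, MCM5, MCM6, POLA1, POLE, PCNA, RFC4, LIG1 and E2F2), beside 7.60% of all genes. The number with the highest level was number 2 for 29 of the 45 genes, and number 3 was the lowest for 33. No such counts over all genes are given here, so these do not show whether the order is particular to the replication genes. The largest difference between numbers was that of E2F2, at 0.99 on the log2 scale, larger than its difference between groups. Taking each gene's log2 FPKM relative to its mean over the 6 libraries, the median over the 45 genes was -0.04, 0.03 and -0.24 in siCtrl replicates 1, 2 and 3, and 0.09, 0.24 and -0.09 in siNUF2. Within each number siNUF2 was the higher, but siNUF2 replicate 3 was below siCtrl replicates 1 and 2. The replicate 3 libraries also had the smallest totals in their groups (63484734 counts in siCtrl and 61257859 in siNUF2). The endothelial gene CDH5 was highest in number 2 (1.87 FPKM in siCtrl and 2.72 in siNUF2, against 0.496 to 0.762 in the other 4 libraries). The fibroblast marker PDGFRB was also highest there (0.218 FPKM in siCtrl and 0.286 in siNUF2). Other markers of such cell types differed. CD68 was lowest in number 2 (3.48 FPKM in siCtrl and 4.72 in siNUF2), and the endothelial PECAM1 was highest in number 3 (0.333 and 0.403 FPKM). The part of the totals or of these markers in the replicate pattern was not tested.

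**Figure D4:**
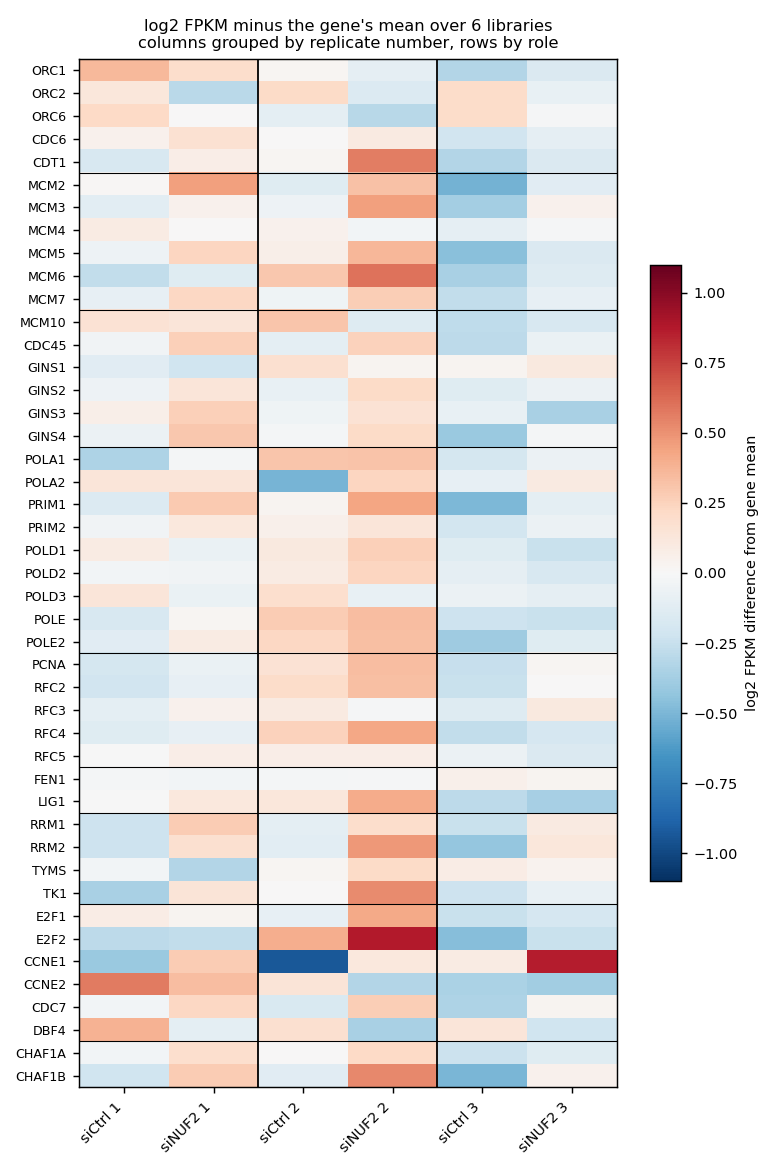
Difference of log2 FPKM from the gene's mean over the 6 libraries (colour, red higher and blue lower) for the 45 genes (rows, by role), with libraries in columns grouped by replicate number. Red is most frequent in replicate 2 and blue in replicate 3, and the siNUF2 column is mostly the redder of each pair, with medians of 0.09 against -0.04, 0.24 against 0.03 and -0.09 against -0.24.

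Other genes of the replication pathway were called in both directions. Of 62 further genes, 61 were tested, and their median log2 fold change was 0.03, with 33 above and 28 below 0. Without the block, TIPIN was called higher and RFC1 and SAMHD1 lower. These are 1.64% and 3.28% of the 61, near the 1.53% and 2.46% over all genes. TIPIN, a fork protection factor, had 7.21, 8.18 and 6.68 FPKM in siCtrl and 12.1, 10.4 and 10.5 in siNUF2, with no overlap. For TIPIN this gave a log2 fold change of 0.60 ± 0.13 (SE), at adjusted p = 0.0438 without the block and 0.0144 with it. RFC1, the large subunit of the clamp loader, whose smaller subunits RFC2 to RFC5 are listed above without a call, had 8.62, 10.7 and 8.75 FPKM in siCtrl and 6.58, 6.57 and 6.34 in siNUF2. All 3 siNUF2 libraries were lower. A log2 fold change of -0.50 ± 0.11 (SE) was fitted for RFC1, and its adjusted p was 0.0468 without and 0.00955 with the block. SAMHD1, which degrades deoxynucleotides, had 7.42, 7.74 and 7.65 FPKM in siCtrl and 4.17, 5.38 and 5.31 in siNUF2. It too was lower in all siNUF2 libraries. The log2 fold change of SAMHD1 was -0.60 ± 0.12 (SE), with an adjusted p of 0.0371 without and 0.0055 with the block.

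With the block, 8 of the 61 were higher (among them GMNN, TIPIN, RPA3, CDC25A, SKP2, RBL1 and NASP) and 7 lower (ORC4, RFC1, SAMHD1, E2F7, CDKN1A, CDKN1B and SLBP). These are 13.1% and 11.5%, beside 6.64% and 7.91% of all genes. The lowest log2 fold changes of the 61 were those of the CDK inhibitor genes CDKN1A (p21) and CDKN1B (p27). CDKN1A had 14.9, 17.5 and 29.9 FPKM in siCtrl and 7.56, 8.47 and 16.3 in siNUF2. Each siNUF2 library was lower than the siCtrl library of its number, although siNUF2 replicate 3 exceeded siCtrl replicate 1. On the log2 scale the difference for CDKN1A was -0.93 ± 0.35 (SE), and the adjusted p was 0.211, or 0.00081 with the block. CDKN1B had 9.11, 12.3 and 8.59 FPKM in siCtrl and 6.45, 7.94 and 4.77 in siNUF2. Its groups did not overlap. For CDKN1B this gave a log2 fold change of -0.62 ± 0.22 (SE), at adjusted p = 0.184 without the block and 0.0133 with it.

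For comparison, 24 genes of G2 and mitosis were read in the same fits. Without the block, 0 passed in edgeR (5 at an unadjusted p under 0.05, beside 18.2% of all genes). In DESeq2, 2 of the 24 passed, beside 8.29% of all genes. With the block, 4 were called higher (BUB1B, CENPF, DLGAP5 and BIRC5) and CDC25C lower, with a median log2 fold change of 0.06 over the 24. These are 16.7% and 4.17%, beside 6.64% and 7.91% of all genes. BIRC5 (survivin) was the highest at a log2 fold change of 0.50 and CDC25C, a phosphatase that activates CDK1, the lowest at -0.49. Whether the replication and the G2/M genes differ in their response was not tested.

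**Figure D5:**
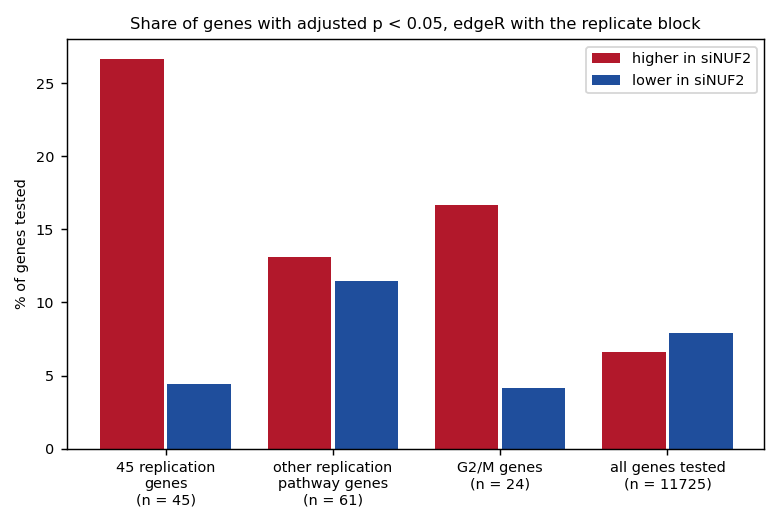
Share of genes tested (y axis, %) called higher (red) or lower (blue) in siNUF2 with the replicate block, for the 45 replication genes, 61 other genes of the pathway, 24 G2/M genes and all 11725 genes. The shares called higher are 26.7%, 13.1%, 16.7% and 6.64%, and those called lower 4.44%, 11.5%, 4.17% and 7.91%.

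Seed matches of the NUF2 siRNA were then looked up in the 3′ UTRs of the 45 genes (the longest per gene in GENCODE release 44). The 7-base word TATGGAA was present in 6 of the 45 (MCM5, POLA2, POLD3, CCNE1, CCNE2 and DBF4), or 13.3%, beside 18.3% of 10234 tested genes with a 3′ UTR. Over all genes, those with the word had a median log2 fold change of -0.09 and those without it 0.02. With the block, 364 of 1875 genes with the word and 535 of 8359 without it were called lower. The counts called higher were 98 and 629. Of the 6 replication genes, DBF4 was called lower with the block, CCNE1 and MCM5 were called higher, and the other 3 were not called. The sites of 4 of them are shown, with the word in capitals, because genes called higher (CCNE1 and MCM5) and lower (DBF4) both hold it. That all 4 sites share the 7 bases comes from the search, which took only that word. They are at chr22:35425315-35425343 (MCM5), chr11:74641899-74641927 (POLD3), chr19:29824019-29824047 (CCNE1) and chr7:87908218-87908246 (DBF4) of GRCh38, all on the plus strand and in the last exon. The MCM5 site lies past the end of the gene in the deposited table (35424501).
MCM5: atttggaaatcTATGGAAcattagataag
POLD3: tattagttactTATGGAAaatcatctatt
CCNE1: cccgatgctgcTATGGAAggtgctacttg
DBF4: ttataaatatgTATGGAAattcttaggat

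The shorter 6-base word ATGGAA, which the 7-base word contains, was in the 3′ UTR of 19 of the 45 genes (42.2%, beside 51.0% of all genes). Both genes called lower with the block, ORC2 and DBF4, hold it, as do 3 of the 12 called higher. Over all genes, 711 of 5219 with the 6-base word and 188 of 5015 without it were called lower with the block. The counts called higher were 320 and 407, so over all genes lower calls were more frequent among those with the word. A match is only a stretch of letters, and its part in any change was not tested.

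Promoters of the replication genes were searched for E2F words, since this family is known to act on them. RefSeq promoters (250 bases before to 50 after the start, GRCh38.p14) were found for 40 of the 45 genes. The words were TTTCCCGC, TTTCGCGC, TTTGCCGC and TTTGGCGC on either strand, and neighbouring matches may overlap. At least 1 was present in 19 of the 40 (47.5%), beside 3.33% of all 27305 promoters, 5.89% of 8598 promoters of tested genes, 24.0% of 50 other pathway genes and 1 of 19 G2/M genes. The word CHR (TTTGAA or TTCGAA), a cell cycle element known from G2/M genes, was in 3 of the 40 and in 13 of the 19 G2/M promoters. These are 7.5% and 68.4%, beside 10.9% of promoters of tested genes and 16.6% of all promoters. The E2F word was in 3 of 10 promoters of genes called higher with the block (MCM2, MCM3 and MCM7), in 0 of 2 called lower (ORC2 and DBF4) and in 16 of 28 of those not called. PCNA, CDC6, CDT1, MCM6, E2F1 and E2F2 were among the last.

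The E2F words nearest the start in the 3 helicase genes called higher are printed in capitals. Their likeness comes in part from the search, which took only the words listed above, and it says nothing about the calls. The windows are chr3:127598402-127598431 on the plus strand (MCM2), chr6:52284728-52284757 on the minus strand (MCM3) and chr7:100101388-100101417 on the minus strand (MCM7).
MCM2: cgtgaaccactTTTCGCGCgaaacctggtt
MCM3: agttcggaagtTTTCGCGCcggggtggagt
MCM7: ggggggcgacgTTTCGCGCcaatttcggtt
All 3 hold the same 8 letters, and in MCM2 a second word on the other strand overlaps the first. MCM3 and MCM7 each hold another word farther upstream. The data measure RNA only, and binding of a factor at these letters was not measured.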

How the data were processed

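Poly(A) RNA of 3 siCtrl and 3 siNUF2 samples of 8505C cells was sequenced as paired ends. Per the methods and the submitters' processing notes, the authors cleaned reads with fastp, mapped them to GRCh38 with HISAT2 and calculated values with StringTie (versions not given in the sources used here). The authors deposited FPKM, scaled for transcript length and depth, and counts, whole numbers per gene without normalization, in 1 table. The tool behind the counts and its strand setting are not given in the sources used here. Groups and replicate numbers came from the sample titles, and all 12 columns of values were used.

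Counts of the 11725 genes whose mean FPKM reached 1 were compared with edgeR 4.0.16 (R 4.3.3) by the quasi-likelihood test with TMM scaling, and p-values were adjusted by Benjamini-Hochberg over all genes tested, with a threshold of 0.05. Total counts are in the report. Libraries of a group differed beyond counting error, with a chi-square of 90.1 to 132 per degree of freedom, so none was taken for a copy. The replicate number was added as a block in a further fit, because same-number libraries correlated at 0.423, 0.313 and 0.431, each over 0.1. The pairing comes from the numbers in the titles. The common dispersion was 0.0452, and 0.0218 with the block. The fit was tested on simulated data, with changes larger than those of most called replication genes. That test therefore does not show how well changes of their size are found.

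The alternatives were RLE and upper-quartile scaling, DESeq2 1.42.0, limma 3.58.1 on log2(FPKM + 1) and on log2(FPKM + 0.1), an F-test of nested linear models on log2(FPKM + 1) (the kind of test the study used, but with adjusted p-values and without its fold-change limits), other filters, and leaving out each library. DESeq2 and limma with the block, and the block without each pair, were added after seeing the data. The members and gene lists were chosen with earlier results of these data known. Values in every library are given for NUF2, members called in either fit, the 3 with the highest and the 3 with the lowest log2 fold change, the 3 most and the 3 least abundant, and the member that varied most between numbers. Of the other lists, called genes or the highest and the lowest are named. Some genes of these lists are not reported here. The 3′ UTRs (at least 50 bases) were from GENCODE release 44 and promoters from RefSeq. All 45 genes overlapped their GENCODE gene on the same strand.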

Additional observations from a re-analysis of the deposited data

How the results depend on the processing

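The count of replication genes called (1 without the block) depended on the fit. It was 4 in DESeq2 (DBF4, CHAF1B, RRM1 and RRM2), 0 with RLE scaling, limma at either pseudocount, the F-test of nested linear models, no filter and a mean FPKM of at least 5, and 14 with the replicate block. With the block it was 17 in DESeq2, all 14 among them, and 7 in limma, each one of the 14. Leaving out 1 library gave 0 each time, and with the block leaving out both libraries of number 1, 2 or 3 gave 8, 11 and 7 (range over all such fits 0 to 11), and the cause was not tested. With all 6 libraries in edgeR the block changed no call of the 45 beyond the 14 named. In DESeq2 it also added CDC45, PCNA and CDT1. The median log2 fold change of the 45 was 0.14 to 0.19 in the fits with the block that left out a number, and 0.04 to 0.25 when 1 library was left out. Every library held at least 419 counts of each of the 14 (lowest in CCNE1). MCM2, CCNE1, CHAF1B, RRM1 and RRM2 were called in every fit with the block.

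Over all genes the count was 468 without the block, 972 in DESeq2, 78 in the F-test, 188 without a filter and 1705 with the replicate block (2359 in DESeq2 and 1182 in limma with the block), and 124 to 1771 when libraries were left out. The other pathway genes gave 3 without the block, 9 in DESeq2, 1 in limma, 0 in the F-test, in limma on log2(FPKM + 0.1) and without a filter, 15 with the replicate block (22 in DESeq2 and 8 in limma), and 0 to 17 when libraries were left out. The G2/M genes gave 0 without the block, 2 in DESeq2, 1 in limma at either pseudocount and at a mean FPKM of at least 5, 5 with the replicate block (5 in DESeq2 and 2 in limma), and 0 to 6 when libraries were left out. The NUF2 call and direction held in every fit, from -3.14 to -2.86 when libraries were left out.

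Of 895 comparisons of single replication genes with their value without the block, 772 kept direction and side of the threshold, 61 gained and 12 lost the call, and 50 changed sign. All sign changes were of genes with no call. RFC5 and FEN1 changed sign in limma with or without the block and in the F-test (-0.0022 and -0.0061), in limma on log2(FPKM + 0.1) (-0.0025 and -0.0061) and at a mean FPKM of at least 5 (-0.00074 and -0.0070). The other sign changes came from leaving out libraries, with ranges on the log2 scale of -0.188 to 0.148 (ORC1), -0.0588 to 0.0352 (MCM4), -0.0413 to 0.482 (MCM6), -0.267 to 0.0468 (MCM10), -0.103 to 0.0651 (GINS1), -0.0312 to 0.246 (GINS3), -0.164 to 0.104 (POLD1), -0.0816 to 0.137 (POLD2), -0.0698 to 0.28 (POLE), -0.0884 to 0.296 (RFC4), -0.0242 to 0.0938 (RFC5), -0.00498 to 0.0434 (FEN1), -0.0482 to 0.336 (LIG1), -0.154 to 0.132 (TYMS), -0.174 to 0.621 (E2F2) and -0.494 to 0.014 (CCNE2).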
